A study of Rattus norvegicus with 9 samples.

Results

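The mitochondrial respiratory chain and ATP synthase are represented here by 12 genes, found among the 32545 genes of the count table. The members are the genes whose symbol in the study's list of genes called between TLs and the vehicle control starts with Nduf, Uqcr, Atp5, Mt- or Cox4 to Cox8, or is Sdha, Sdhb, Sdhc or Sdhd. They were thus selected on their difference between TLs and the vehicle, by the study's own test, and another gene of the chain could enter only if it had been called there. The copy of that list used here lacks its last rows, so called genes of the chain may be missing. Of the 12 members, 7 are nuclear and 5 are encoded by mitochondrial DNA (mtDNA), and all 12 passed the filter on low counts, with 507 to 32983 counts in a library.

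RNA was sequenced from bone marrow-derived dendritic cells (BMDCs) of wild-type Sprague-Dawley rats, 8 to 12 weeks old, grown for 7 days with rat GM-CSF and human FLT3-L. Nonadherent cells were stimulated for 6 h, 1000000 per well, with 600 ng/mL of total lipids (TLs) from the gut bacterium Lactobacillus johnsonii N6.2, with 100 ng/mL of the synthetic glycolipid α-GalCer, or with vehicle only (the vehicle control). Each group had 3 libraries, described by the study as independent assays; whether each came from a separate animal is not given, so the p-values measure the spread between these assays. TLs were in PBS alone, whereas α-GalCer and the vehicle were in DMSO diluted in PBS, so that in every comparison with TLs the lipids cannot be told apart from the lack of DMSO. The cultures were bulk preparations of more than one cell type.

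The respiratory chain passes electrons from NADH (complex I) and succinate (complex II) through ubiquinone to complex III, cytochrome c and complex IV, where oxygen is reduced. Complexes I, III and IV pump protons across the inner mitochondrial membrane, and ATP synthase uses the return flow to make ATP. Complex II is built from nuclear genes alone, while the other complexes join nuclear subunits to a few made inside the mitochondrion from mtDNA. Activated dendritic cells and macrophages are known for a shift of their energy metabolism from respiration to glycolysis.

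Library totals ranged from 15190820 to 20591105 counts. The vehicle library of replicate 2 stood apart: on the second principal component of log2 CPM, which held 9.72% of the variance, it scored -32.6 while the other vehicle libraries scored 14.9 and 15.6. Differences from the vehicle are given with and without it. Levels are in CPM, a scaling of counts by library size, here with TMM factors. A gene was called when edgeR's quasi-likelihood test gave a Benjamini-Hochberg adjusted p under 0.01 over 12602 genes and an absolute log2 fold change (log2FC) over 0.3. Cell type markers could be found only where the study had called them. The summed level of the 5 dendritic cell markers with a symbol was 772 to 829 CPM with α-GalCer, 833 to 876 CPM with the vehicle and 1021 to 1069 CPM with TLs. The 6 macrophage and monocyte markers summed to 1952 to 2019, 1993 to 2078 and 3392 to 3417 CPM in the same order. Cd14 carried the higher sum: without it, the other 5 summed to 1545 to 1572 CPM with α-GalCer, 1500 to 1648 CPM with the vehicle and 972 to 1004 CPM with TLs. In TLs against α-GalCer, 2 of the 5 were called higher (Itgax and Ccr7) and 3 lower (Irf8, Clec10a and Itgae), and 2 of the 6 higher (Cd14 and Adgre1) and 4 lower (Mertk, Fcgr1a, Mrc1 and Csf1r). Mpo, the 1 granulocyte marker found, was at 427 to 435 CPM with TLs and 468 to 536 CPM in the other libraries. Of the lymphoid, erythroid and mast cell markers only Ptcra had a symbol, and it did not pass the filter. The part of these shifts in the results on the chain was not tested. In bulk RNA, fewer cells of a type and less RNA per cell cannot be told apart.

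Between TLs and α-GalCer, the nuclear members were below 0 and the mitochondrial members near it. All 7 nuclear members had a negative log2FC, from -0.43 to -0.13 in edgeR, and kept that sign under each of the 19 alternative settings, where they ranged from -0.495 to -0.003. Ndufv3 and Sdhd passed both thresholds. The 5 mitochondrial members lay between -0.01 and 0.10, and 0 of them were called by edgeR or at an unadjusted p under 0.05; Mt-nd5, Mt-nd6 and Mt-co2 changed sign under some settings. Both called members were lower, beside 10.5% of all genes tested called lower and 9.85% called higher, so 2 of 12 is close to the share over all genes. These comparisons share the TL libraries with the contrast that chose the members and are not independent of that choice.

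**Figure D1:**
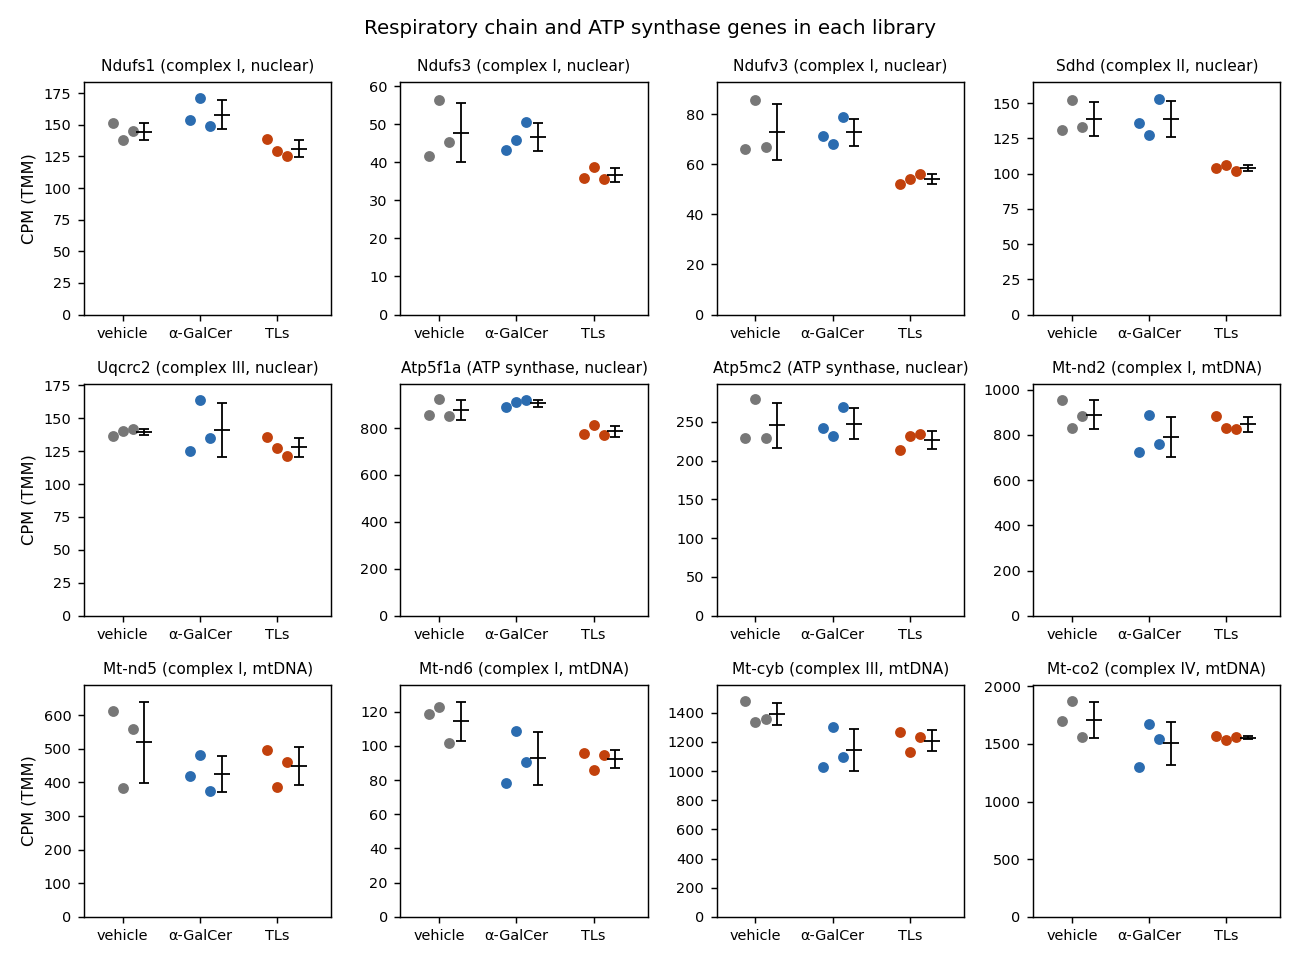
Levels of the 12 members in CPM (TMM-normalised, linear axis from 0) in each of the 3 vehicle, 3 α-GalCer and 3 TL libraries, with the mean and SD beside the points. The TL points of Ndufs1, Ndufs3, Ndufv3, Sdhd and Atp5f1a lie below all α-GalCer points, while those of the 5 mtDNA genes overlap with them.

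Complex I was represented by 3 of 38 listed nuclear genes. Ndufv3 (ENSRNOG00000001182), an accessory subunit of the NADH-binding arm, was at 52.3, 54.1 and 56.2 CPM with TLs, at 71.4, 68.2 and 78.7 CPM with α-GalCer, and at 66.1, 85.7 and 67.0 CPM in the vehicle libraries. Every TL library was below every library of the other groups, and the vehicle library of replicate 2 was the highest of all. Relative to α-GalCer, Ndufv3 fell by 25.6% with TLs (log2FC -0.43, SE 0.102, 95% interval -0.65 to -0.20, adjusted p = 0.00808). The call was lost without any 1 of the 6 TL or α-GalCer libraries: the adjusted p was 0.0143 to 0.0390, with log2FC -0.45 to -0.37. Leaving out such a library also lowered the number of all genes called lower, from 1321 to between 891 and 1023. Without the vehicle library of replicate 2 the adjusted p of Ndufv3 was 0.00029, and with a block for replicate number it was 0.0132.

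Ndufs3 (ENSRNOG00000009155), a core subunit of the arm that carries electrons towards ubiquinone, was at 35.8, 38.8 and 35.5 CPM with TLs. Its levels were 43.3, 46.0 and 50.6 CPM with α-GalCer and 41.6, 56.5 and 45.3 CPM with the vehicle. The TL libraries again lay below all others, with a narrow gap to the vehicle. Against α-GalCer the log2FC was -0.35 (SE 0.111, 95% interval -0.59 to -0.10, adjusted p = 0.0339), which missed the threshold. Without the vehicle library of replicate 2, which enters this test only through the shared spread, the log2FC was the same and the adjusted p was 0.00332.

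Ndufs1 (ENSRNOG00000011849), the largest core subunit of complex I and a carrier of iron-sulfur clusters, was at 139, 129 and 126 CPM with TLs, 154, 171 and 149 CPM with α-GalCer, and 151, 138 and 145 CPM with the vehicle. TL and α-GalCer libraries did not overlap, but the highest TL library exceeded the lowest vehicle library. The log2FC against α-GalCer was -0.27 (SE 0.0682, 95% interval -0.42 to -0.12, adjusted p = 0.0110). It fell short of both thresholds.

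Complex II was represented by 1 of its 4 genes. Sdhd (ENSRNOG00000022980) encodes a membrane anchor of succinate dehydrogenase, the enzyme shared by the chain and the TCA cycle. It was at 104, 106 and 102 CPM with TLs, at 136, 128 and 153 CPM with α-GalCer and at 131, 152 and 133 CPM with the vehicle. The TL libraries differed little from each other and lay below all 6 others. Relative to α-GalCer, Sdhd fell by 25.0% with TLs (log2FC -0.42, SE 0.0797, 95% interval -0.59 to -0.24, adjusted p = 0.00217). Its adjusted p rose to 0.0109 without TL replicate 1, 0.0128 without TL replicate 3 and 0.0104 without α-GalCer replicate 3, each just past the threshold.

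Ndufv3 and Sdhd were the members called, and their promoters are shown for that reason. All 7 nuclear members matched a RefSeq promoter of the rat build GRCr8 by symbol, each holding 250 bases before and 50 after the annotated start. Capitals mark matches, on either strand, to motifs of factors known to act on nuclear genes of the chain: NRF1 (GCGCANGCG), GABPA (CTTCCGG), ERR-alpha (TNAAGGTCA) and YY1 (ANATGGCG). The letters were chosen after the promoters had been seen. Ndufv3 lies at chr20:9613536-9613835 on the plus strand and Sdhd at chr8:59850592-59850891 on the minus strand, both printed 5′ to 3′ along the gene.
Ndufv3: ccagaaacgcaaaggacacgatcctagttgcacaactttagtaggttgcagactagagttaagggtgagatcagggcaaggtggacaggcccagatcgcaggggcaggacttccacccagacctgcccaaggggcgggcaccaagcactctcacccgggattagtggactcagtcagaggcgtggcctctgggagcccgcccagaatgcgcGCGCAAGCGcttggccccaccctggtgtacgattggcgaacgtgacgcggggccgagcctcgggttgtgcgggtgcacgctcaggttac
Sdhd: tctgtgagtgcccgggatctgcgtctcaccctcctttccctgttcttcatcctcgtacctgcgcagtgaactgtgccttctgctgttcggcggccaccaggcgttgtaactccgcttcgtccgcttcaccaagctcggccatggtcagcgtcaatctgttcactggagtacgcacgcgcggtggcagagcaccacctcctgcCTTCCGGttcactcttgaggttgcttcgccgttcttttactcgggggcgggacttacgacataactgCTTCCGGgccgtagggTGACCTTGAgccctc
The Ndufv3 window held 1 NRF1 match, whose first base lay at -39, where the start is 1. In the Sdhd window there were GABPA matches at -48 and 20 and an ERR-alpha match on the opposite strand at 36.

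The same letters stood in other members and in other genes. GABPA matches were found in 4 of the 7 nuclear members (Ndufs1, Sdhd, Uqcrc2 and Atp5f1a), beside 8.75% of 33469 promoters of the same length. NRF1 matches were found in 2 (Ndufv3 and Atp5mc2), beside 5.8%. For Atp5mc2 they were a pair of overlapping matches on opposite strands. YY1 matches were found in 2 (Ndufs1 and Atp5mc2), beside 4.2%, and the ERR-alpha match in Sdhd was the only one, beside 1.2%. Ndufs3 held no match in its window. GABPA letters also stood in Uqcrc2 and NRF1 letters in Atp5mc2, the members with the smallest nuclear differences. With so few promoters, and letters chosen after these had been seen, a link between motifs and calls was not tested.

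Complex III was represented by 1 of 9 listed nuclear genes. Uqcrc2 (ENSRNOG00000036742), a core protein on the matrix side, was at 135.5, 127 and 121 CPM with TLs, 125, 164 and 135 CPM with α-GalCer and 137, 140.2 and 142 CPM with the vehicle. The α-GalCer libraries spanned a wider range than the others, and the TL libraries overlapped with them. The log2FC was -0.14 (SE 0.0912, 95% interval -0.34 to 0.06, adjusted p = 0.264), and the α-GalCer libraries decided its size. It was -0.003 (adjusted p = 0.980) without replicate 2 of that group and -0.22 (adjusted p = 0.0922) without replicate 1. The fitted log2FC of Sdhd, -0.42, lies outside this interval, but the interval of Sdhd overlaps with it.

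ATP synthase was represented by 2 of 18 listed nuclear genes. Atp5f1a (ENSRNOG00000017032) encodes the alpha subunit of the catalytic head. It was at 776, 814 and 769 CPM with TLs, 888, 910 and 919 CPM with α-GalCer, and 854, 925.5 and 849 CPM with the vehicle. Its replicates were close, and the TL libraries lay below all others. Against α-GalCer the log2FC was -0.20 (SE 0.0515, 95% interval -0.32 to -0.09, adjusted p = 0.0107), which missed both thresholds.

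Atp5mc2 (ENSRNOG00000015320) encodes a c subunit of the membrane ring; its mature protein is the same as that made from Atp5mc1 and Atp5mc3. It was at 213, 232 and 235 CPM with TLs, 241, 231 and 269.5 CPM with α-GalCer and 229, 279 and 229 CPM with the vehicle. The groups overlapped. The log2FC against α-GalCer was -0.13 (SE 0.0881, 95% interval -0.32 to 0.07, adjusted p = 0.305).

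Over the nuclear members, the median log2FC of TLs against α-GalCer was -0.27, beside -0.02 over all genes tested. In 5 of the 7 every TL library lay below every α-GalCer library, an order found for 26.2% of all genes tested. As the members had been chosen with the same TL libraries, nothing is read from their differences from all genes. By complex, the log2FC was -0.42 for Sdhd of complex II, -0.43 to -0.27 for the 3 complex I genes, -0.14 for Uqcrc2 of complex III and -0.20 and -0.13 for the ATP synthase genes. With 1 to 3 members per complex, these values describe the genes found and not the complexes as a whole, and no difference between complexes was tested. For complex IV, 0 of 16 listed nuclear genes were found, so that it was represented only by its mtDNA subunit.

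The mtDNA members encode 3 subunits of the proton-pumping arm of complex I, cytochrome b of complex III and the copper-bearing subunit 2 of complex IV. They were 5 of the 13 protein genes of mtDNA. RNA was captured by poly-T beads, so the counts refer only to RNA captured in this way, which may differ between these genes. Strand and multi-mapping settings of the counting are not stated. Reads from nuclear copies of mtDNA could thus be shared, and reads of Mt-nd6, which lies on the opposite strand to its neighbour Mt-nd5, cannot be told apart from antisense RNA over it.

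Mt-cyb (ENSRNOG00000031766) was at 1268, 1129 and 1231 CPM with TLs, 1030, 1306 and 1099 CPM with α-GalCer and 1479, 1340 and 1357 CPM with the vehicle. The vehicle libraries were the highest and did not overlap with either treatment. Against α-GalCer, TLs gave a log2FC of 0.08 (SE 0.0854, 95% interval -0.11 to 0.27, adjusted p = 0.525). Mt-co2 (ENSRNOG00000030371) was at 1569, 1538 and 1560 CPM with TLs, 1304, 1673 and 1542 CPM with α-GalCer and 1696, 1872 and 1561 CPM with the vehicle. The TL libraries lay inside the range of the α-GalCer libraries, and the log2FC was 0.05 (SE 0.0887, 95% interval -0.15 to 0.24, adjusted p = 0.728).

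Of the complex I genes of mtDNA, Mt-nd2 (ENSRNOG00000031033) was at 883, 831 and 825 CPM with TLs, 723, 890 and 760.1 CPM with α-GalCer and 957, 830.2 and 883 CPM with the vehicle. Mt-nd5 (ENSRNOG00000029971) was at 497, 387 and 461 CPM with TLs, 418, 481 and 375 CPM with α-GalCer and 613, 384.5 and 559 CPM with the vehicle. The vehicle library of replicate 2 was far below the other vehicle libraries for Mt-nd5, though not for Mt-co2. The counts of Mt-nd5 per count of Mt-co2 in the vehicle libraries were 0.362, 0.205 and 0.358, against 0.252 to 0.317 with TLs and 0.243 to 0.321 with α-GalCer. Mt-nd6 (ENSRNOG00000029042) was at 95.65, 86.2 and 94.7 CPM with TLs, 78.15, 109 and 90.8 CPM with α-GalCer and 119, 123 and 101 CPM with the vehicle. For all 3 genes the TL and α-GalCer libraries overlapped. The log2FC was 0.10 for Mt-nd2 (SE 0.0806, 95% interval -0.08 to 0.28, adjusted p = 0.394), 0.08 for Mt-nd5 (SE 0.159, 95% interval -0.27 to 0.43, adjusted p = 0.749) and -0.01 for Mt-nd6 (SE 0.114, 95% interval -0.26 to 0.25, adjusted p = 0.971). The intervals of all 5 mtDNA members exclude a log2FC as low as the fitted one of Sdhd or Ndufv3, and that of Mt-nd5 is the widest of the 5. However, the intervals of Sdhd (upper end -0.24) and Ndufv3 (upper end -0.20) overlap those of Mt-nd5 and Mt-nd6. No difference between nuclear and mitochondrial members was tested.

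**Figure D2:**
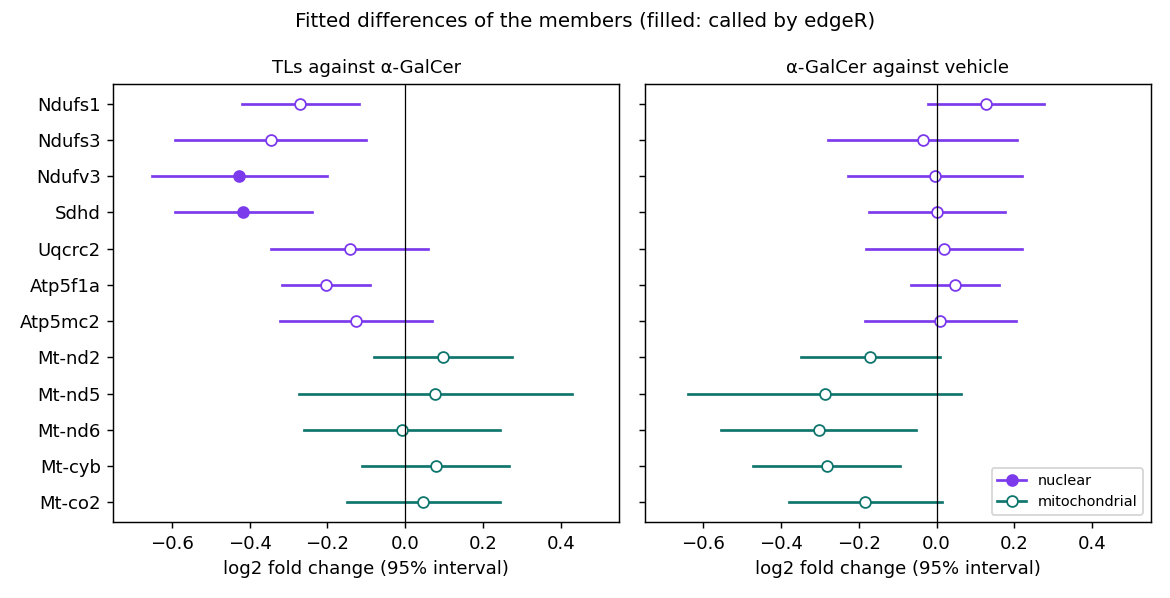
Fitted log2FC of the 12 members with 95% intervals (x axis), for TLs against α-GalCer on the left and α-GalCer against the vehicle on the right, coloured by genome. Filled points passed edgeR's thresholds: Ndufv3 and Sdhd on the left, 0 members on the right.

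α-GalCer differed little from the vehicle in the nuclear members, and its mitochondrial members lay lower without passing the test. The nuclear log2FC ranged from -0.04 for Ndufs3 to 0.13 for Ndufs1, with a median of 0.01. The mitochondrial ones were -0.17 for Mt-nd2, -0.29 for Mt-nd5, -0.30 for Mt-nd6, -0.28 for Mt-cyb and -0.18 for Mt-co2, below 0 under all 19 alternative settings. By edgeR, 0 members were called (adjusted p = 0.99994 for each), as were 0% of all genes tested, and DESeq2 and limma-voom also called 0 members. At an unadjusted p under 0.05, 2 members were lower, beside 1.68% of all genes tested: Mt-cyb (95% interval -0.47 to -0.09) and Mt-nd6 (95% interval -0.55 to -0.05). Mt-cyb was the 1 member with every α-GalCer library below every vehicle library, an order found for 3.4% of all genes tested. The vehicle libraries took part in choosing the members, which were to be lower or higher than they were, so this comparison is not independent of the choice either.

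The vehicle library of replicate 2 weighed on these values. Without it, the log2FC of α-GalCer against the vehicle was further from 0 for Mt-nd5 (-0.46, adjusted p = 0.208), Mt-cyb (-0.31, adjusted p = 0.293) and Mt-nd2 (-0.22, adjusted p = 0.361). It was closer to 0 for Mt-nd6 (-0.25, adjusted p = 0.445) and Mt-co2 (-0.11, adjusted p = 0.617), and 0 members were called by edgeR. Mt-nd5 also depended on vehicle replicate 1, without which it was at -0.15. Without the vehicle library of replicate 2, the nuclear log2FC were between 0.02 for Uqcrc2 and 0.13 for Ndufv3. Over all genes, 370 had an unadjusted p under 0.05 with this library and 1472 without it.

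Summed over members, the nuclear counts were lowest with TLs and the mitochondrial counts were, on average, highest with the vehicle. The nuclear members held 0.171% ± 0.0052 of all counts with the vehicle, 0.177% ± 0.0030 with α-GalCer and 0.138% ± 0.00208 with TLs (SD, n = 3 each). Every TL library, at 0.136% to 0.140%, lay below every other, at 0.168% to 0.180%. The vehicle library of replicate 2 was at 0.177%, and the other vehicle libraries at 0.168% each. The mitochondrial members held 0.475% ± 0.0291 with the vehicle, 0.410% ± 0.0449 with α-GalCer and 0.389% ± 0.0172 with TLs, and the last 2 groups overlapped. The vehicle libraries were at 0.508%, 0.452% and 0.466%. These are shares of unscaled counts; TMM scaling factors were 0.936 to 0.940 in the TL libraries and 0.994 to 1.05 in the others, so CPM with TLs stand somewhat higher relative to the other groups than the shares do. Single genes weighed heavily in both sums. In the vehicle library of replicate 1, Atp5f1a, which was not called, held 14591 of 27492 nuclear counts. Mt-co2 and Mt-cyb held 28971 and 25269 of 83087 mitochondrial counts in that library. The ratios that follow do not depend on scaling, but the ratio of summed mitochondrial to nuclear counts carries the same weights.

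**Figure D3:**
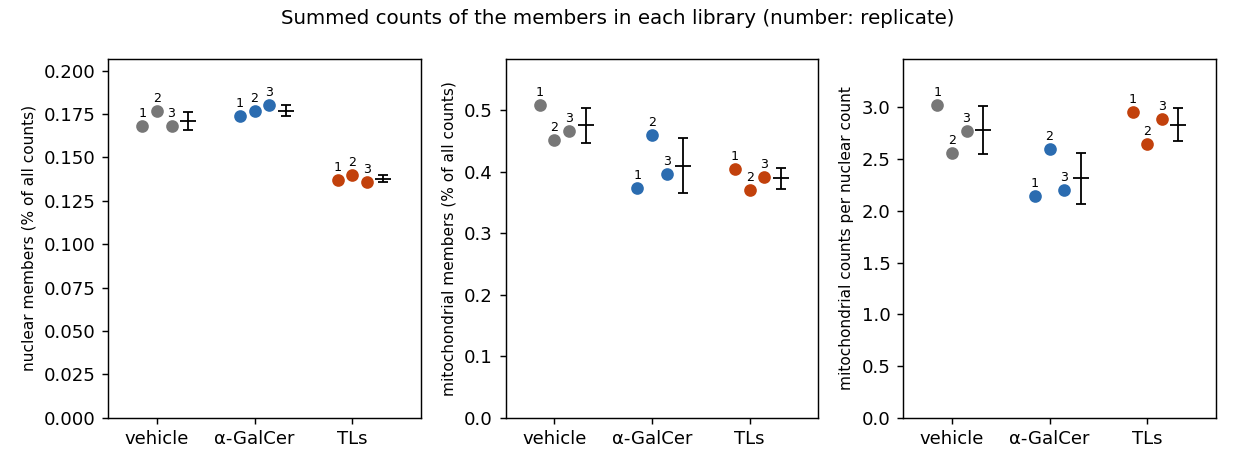
Counts summed over the 7 nuclear members (left) and the 5 mitochondrial members (middle) as a percentage of all counts, and mitochondrial counts per nuclear count (right), for each library, numbered by replicate, with mean and SD. The nuclear share was 0.136% to 0.140% in the TL libraries and 0.168% to 0.180% in the others; the ratio was 2.65 to 2.96 with TLs and 2.14 to 2.60 with α-GalCer.

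There were 3.02, 2.56 and 2.77 mitochondrial counts per nuclear count in the vehicle libraries, 2.14, 2.60 and 2.20 in the α-GalCer libraries and 2.96, 2.65 and 2.89 in the TL libraries. The α-GalCer libraries were the lowest, with replicate 2 of that group reaching the range of the vehicle. Within complex I, the counts of Mt-nd2, Mt-nd5 and Mt-nd6 per count of Ndufs1, Ndufs3 and Ndufv3 were 6.51, 5.88 and 6.35 with TLs, 4.54, 5.19 and 4.41 with α-GalCer and 6.52, 4.78 and 6.0 with the vehicle. TL and α-GalCer libraries did not overlap, and the vehicle libraries reached into both ranges. Within complex III, Mt-cyb per Uqcrc2 was 8.25, 7.95 and 8.15 with α-GalCer, narrowly spread and below the 8.86 to 10.2 with TLs and the 9.56 to 10.8 with the vehicle. Mt-co2 counts per Atp5f1a count were 1.47, 1.84 and 1.68 with α-GalCer and 1.84 to 2.03 in the other libraries. No ratio was tested, because the members were chosen by their levels in these libraries.

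Against the vehicle, all 12 members were lower with TLs, which is the contrast that chose them and is given as a description only. The log2FC ran from -0.43 for Ndufv3, -0.42 for Sdhd and -0.38 for Ndufs3 to -0.12 for Uqcrc2 and Atp5mc2 among the nuclear members. Among the mitochondrial members it ran from -0.31 for Mt-nd6 to -0.07 for Mt-nd2, the member closest to 0. Genes just outside the study's list could not be named, since symbols were taken from that list. The medians were -0.16 for nuclear and -0.20 for mitochondrial members, beside -0.02 over all genes. Under edgeR, Ndufv3 and Sdhd passed the thresholds, beside 9.67% of all genes called lower. The other members did not, although the study had called all 12 at the same thresholds. Its test was another one, run after correction for length and GC content. Without the vehicle library of replicate 2 only Sdhd passed under edgeR. Without that library the nuclear log2FC were -0.34 for Sdhd, -0.30 for Ndufv3, -0.24 for Ndufs3, -0.175 for Ndufs1, -0.12 for Uqcrc2, -0.115 for Atp5f1a and -0.01 for Atp5mc2. The mitochondrial ones were -0.385 for Mt-nd5, -0.25 for Mt-nd6, -0.23 for Mt-cyb, -0.12 for Mt-nd2 and -0.07 for Mt-co2. All TL libraries lay below all vehicle libraries in 5 nuclear and 2 mitochondrial members, an order found for 23.9% of all genes tested. Median log2FC of nuclear members were thus below 0 with TLs against both other groups, and those of mitochondrial members against the vehicle alone.

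Other genes of energy metabolism, from lists compiled by function, could likewise be found only where the study had called them against the vehicle. They included 11 genes of glycolysis and glucose uptake, of which 8 were called higher and 1 lower in TLs against α-GalCer. In TLs against α-GalCer, 14 of the 34 tested were called higher and 7 lower, beside 9.85% and 10.5% of all genes tested; as these genes had been called with the same TL libraries, nothing is read from the difference. Of 4 electron carriers and other entries to the chain, 2 fell: Coq8a (log2FC -1.74, SE 0.175, adjusted p = 2.28e-05) and Coq9 (-0.38, SE 0.0740, adjusted p = 0.00245), both needed to make ubiquinone. Sqor, which feeds electrons from sulfide to ubiquinone, rose by 0.35 (SE 0.0681, adjusted p = 0.00225). Among 2 assembly factors, Sco1, which delivers copper to the subunit encoded by Mt-co2, rose by 0.38 (SE 0.0878, adjusted p = 0.00620).

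Of 6 genes of the TCA cycle and pyruvate entry, 1 rose and 1 fell. Acod1, whose product itaconate is a known inhibitor of succinate dehydrogenase, had a log2FC of 4.64 (SE 0.115, adjusted p = 4.14e-10). Idh2, the mitochondrial NADP-dependent isocitrate dehydrogenase, had -0.73 (SE 0.0571, adjusted p = 3.23e-06). Of 4 genes of mitochondrial gene expression and biogenesis, the coactivator gene Ppargc1b (-1.41, SE 0.210, adjusted p = 0.000403) and Myc (-0.77, SE 0.0589, adjusted p = 2.61e-06) fell and 0 were called higher. Esrra was at 0.355 (SE 0.136, adjusted p = 0.0672) and Lrpprc at -0.138 (SE 0.0552, adjusted p = 0.0776), neither called. Next to the log2FC of the genes called in these lists, those of the 12 chain members were small.

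**Figure D4:**
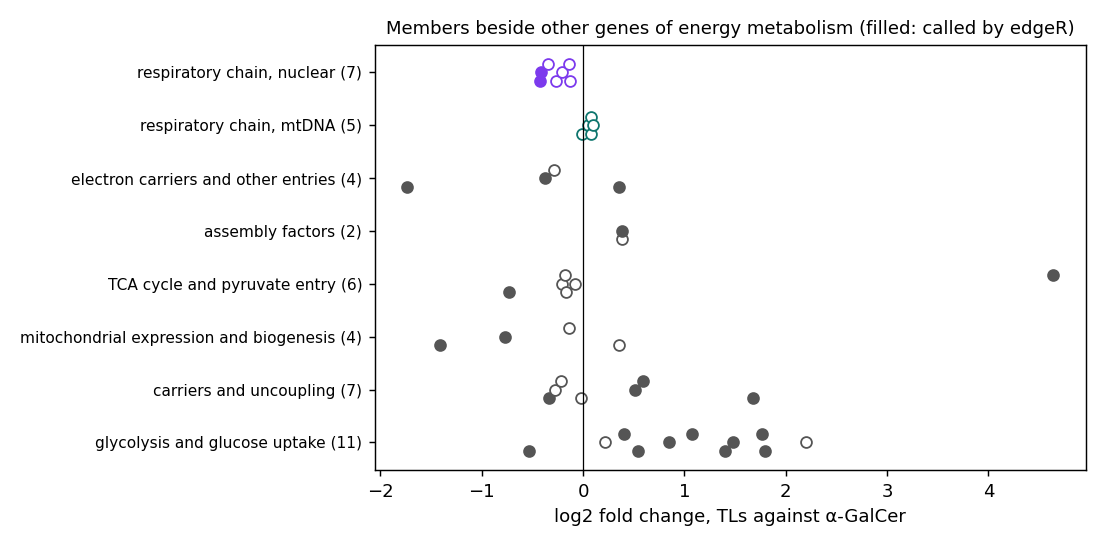
log2FC of TLs against α-GalCer (x axis) for the 12 members and 34 other genes of energy metabolism, by list with the number tested; filled points passed edgeR's thresholds. The chain members lie between -0.43 and 0.10, and the other genes between -1.74 and 4.64.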

How the data were processed

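mRNA of 9 rat BMDC libraries was measured by paired-end sequencing after poly-T selection. The authors deposited 1 table of raw counts per Ensembl gene ID; per the labels and their methods, reads had been cleaned with fastp, mapped with HISAT2 to Rnor_6.0 and counted with featureCounts, and neither versions nor counting options for strand and multi-mapped reads are given in the sources used here. All values were whole numbers. Symbols came from the study's supplementary list of genes it had called between TLs and the vehicle control, by NOISeqBIO after correction for length and GC content. The copy used here held its first 1999 rows, with 1981 symbols, of which 1839 were tested. Its columns of fold changes and adjusted p-values were not used.

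Groups came from the sample labels. Counts were filtered with edgeR's filterByExpr, leaving 12602 of 32545 genes, scaled by TMM and fitted in edgeR 4.0.16 (R 4.3.3) with glmQLFit and glmQLFTest over all 9 libraries, with the group as the only term. The SE is the absolute log2FC divided by the square root of F. Calls used the study's thresholds. p-values were adjusted over all genes tested. Principal components used log2 CPM with a prior count of 2. Libraries of a group differed by more than counting noise in every pair (chi-square per degree of freedom 3.72 to 23.5), so none was a copy of another.

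Alternatives were RLE and upper quartile normalisation, scaling without the mitochondrial members, DESeq2 1.42.0, limma-voom (limma 3.58.1), robust edgeR, no filter, at least 10 counts in every library, the 2 groups compared alone, a replicate block, and leaving out each library. The scripts were tested on simulated data. All members are named, and of each other list up to 4 called genes with the smallest adjusted p. Pdk3, Pkm, Eno2, Esrra, Lrpprc and the markers were named after their values were seen. The members and lists were chosen with earlier results of these data known. Promoter sequences are those of RefSeq for GRCr8; none of their coordinates refer to Rnor_6.0.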

Additional observations from a re-analysis of the deposited data

How the results depend on the processing

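With 507 or more counts per member and library, 3 libraries per group limit the precision. In TLs against α-GalCer, 2 members were called, 3 with upper quartile normalisation or with the 2 groups alone, and 0 to 3 when 1 library was left out. The median log2FC of nuclear members was -0.34 with upper quartile normalisation (-0.31 to -0.19 without 1 library). Upper quartile normalisation also moved the median over all genes tested from -0.0187 to -0.0877, and the number called lower from 1321 to 1742. For TLs against the vehicle, 2 members were called, 3 with upper quartile normalisation and DESeq2, 1 with the 2 groups alone and 0 to 3 without 1 library, and other genes called lower numbered 7, or 4 to 7 without 1 library.

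Deviations of same-numbered libraries correlated at -0.062 to 0.125 (9 pairs), those of other pairs at -0.137 to 0.103 (18 pairs). These ranges overlap, so no clear pairing by replicate number was seen, but pairing is not excluded. With a replicate block, 1 member was called in each TL comparison, and the adjusted p of Ndufv3 against α-GalCer was 0.0132. The block also turned the log2FC of Mt-nd6 in that comparison to 0.003 and of Ndufv3 in α-GalCer against the vehicle to 0.001.

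Signs changed only for log2FC near 0. In TLs against α-GalCer, Mt-nd6 was at 0.007 with RLE and DESeq2, 0.005 with limma-voom, 0.002 without a filter, 0.008 with at least 10 counts, 0.006 with the 2 groups alone and -0.115 to 0.143 without 1 library. Mt-co2 was at -0.022 with upper quartile normalisation and -0.047 to 0.146 without 1 library, and Mt-nd5 at -0.004 to 0.194 without 1 library. In α-GalCer against the vehicle, Sdhd was at -0.001 with RLE, DESeq2 and limma-voom, -0.007 without a filter, -0.002 with at least 10 counts and -0.003 with the 2 groups alone, and Ndufv3 at 0.004 with limma-voom. Without 1 library, that comparison gave -0.076 to 0.073 for Sdhd, -0.070 to 0.129 for Ndufv3, -0.126 to 0.102 for Ndufs3, -0.105 to 0.100 for Uqcrc2 and -0.056 to 0.113 for Atp5mc2. The cause was not tested.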

Other observations

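Of 26 listed genes of glycolysis and glucose uptake, 11 were found, each only because the study had called it against the vehicle. In TLs against α-GalCer, 8 of these 11 rose and 1 fell, beside 9.85% and 10.5% of all genes. As they had been called with the same TL libraries, nothing is read from that difference. Slc2a1, the glucose transporter GLUT1, had a log2FC of 1.48 (SE 0.0560), Slc2a6, of the same transporter family, 1.79 (SE 0.0683), Slc16a3, the lactate exporter MCT4, 1.77 (SE 0.0829), and Hif1a, a transcription factor that drives glycolytic genes, 1.40 (SE 0.0677), with adjusted p of 1.19e-08, 1.21e-08, 5.61e-08 and 7.17e-08. Pdk3, a kinase that inhibits pyruvate dehydrogenase, fell by 0.53 on the log2 scale (SE 0.0837, adjusted p = 0.000620). Pkm was at 0.21, under the fold threshold, and Eno2 at 2.20 (SE 1.13, adjusted p = 0.164).

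Of 7 mitochondrial carriers and uncoupling genes, found likewise only because the study had called them against the vehicle, 3 rose and 1 fell, beside 9.85% and 10.5% of all genes. Slc25a37, which imports iron for heme and iron-sulfur clusters, had a log2FC of 1.68 (SE 0.0894, adjusted p = 1.51e-07). The ATP-magnesium/phosphate carrier genes Slc25a24 and Slc25a25 had 0.59 (SE 0.0737, adjusted p = 0.000113) and 0.51 (SE 0.0802, adjusted p = 0.000604). Slc25a39, which imports glutathione, had -0.335 (SE 0.0604, adjusted p = 0.00146).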
